A study of Mus musculus with 6 samples.

Results

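Mitosis and G2/M genes encode the proteins that carry a cell through chromosome condensation, spindle assembly, chromosome separation and division. A list of 37 such genes was looked up by gene symbol among the probe sets of the array, and 36 of 37 were found, of 19938 genes with a probe set of their own in the annotation used here. Ccnb1, which encodes cyclin B1, had no probe set named for it alone. Of several probe sets for a gene, the brightest over the 6 arrays was kept.

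Expression was measured in sorted mouse bone marrow cells on 6 Affymetrix whole-transcript arrays, with 2 biological replicates in each of 3 groups. In all groups the marrow came from donors given 5-fluorouracil and was put into recipients of the same strain, C57BL/6 (B6), with genotype WT and an age of 8 weeks in the labels. In the BCR-ABL-Blk group a retrovirus brought in BCR-ABL, Blk and GFP. In the BCR-ABL group it brought in BCR-ABL and GFP, and in the vector group GFP alone. BCR-ABL is a fusion tyrosine kinase without an off switch, the cause of chronic myeloid leukemia (CML). Blk belongs to the Src kinases and is best known from B lymphocytes. Marrow was taken 14 days later, and cells with GFP, c-Kit and Sca-1 but no lineage markers were sorted. The labels call them LSCs (leukemic stem cells) in the groups with BCR-ABL and HSCs (hematopoietic stem cells) in the vector group. The labels do not say how many animals made up a replicate, so the spread between replicates is that between 2 preparations of cells. The gate takes in cycling progenitors as well as stem cells, and this is a bulk measurement, in which fewer dividing cells and less of each mRNA per dividing cell cannot be told apart.

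Cells copy their DNA in S phase, pause in G2 and divide in M phase. Cyclin A and cyclin B, bound to the kinase Cdk1, drive entry into mitosis. The transcription factor Foxm1 and the MuvB complex with Mybl2 switch on their genes late in the cycle, and a related complex, DREAM, keeps the same genes off in resting cells. Many of their promoters hold a short element near the start site, the cell cycle genes homology region (CHR), which MuvB complexes bind, together with CCAAT boxes, which the factor NF-Y binds. Long-lived hematopoietic stem cells are mostly at rest, while progenitors in the same gate divide often, so these genes are commonly read as a measure of dividing cells.

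Promoters of 6 of the genes are shown because most genes of the list share this element. The sequences are RefSeq's, from mouse build GRCm38.p6, on the strand of the gene and written 5′ to 3′. Capitals mark the CHR, searched as TTTGAA or TTCGAA on both strands (TTCAAA is TTTGAA read on the other strand), and CCAAT boxes, searched as CCAAT or its reverse ATTGG. For Cdk1, Cdc20 and Ube2c the 100 bases before the start site are given, and for Ccnb2, Plk1 and Aurka the 26 bases around the CHR nearest to the start.
Cdk1 (chr10:69352913-69353012, minus strand): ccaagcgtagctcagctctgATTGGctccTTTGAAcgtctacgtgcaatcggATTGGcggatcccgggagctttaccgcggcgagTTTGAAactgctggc
Cdc20 (chr4:118437344-118437443, minus strand): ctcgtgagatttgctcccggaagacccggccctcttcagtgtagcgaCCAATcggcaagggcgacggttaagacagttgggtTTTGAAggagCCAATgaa
Ube2c (chr2:164769829-164769928, plus strand): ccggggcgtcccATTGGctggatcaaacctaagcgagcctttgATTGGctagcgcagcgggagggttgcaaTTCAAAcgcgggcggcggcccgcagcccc
Ccnb2 (chr9:70421535-70421560, minus strand): cggcgcggtaTTTGAAtcgcggaccg
Plk1 (chr7:122159455-122159480, plus strand): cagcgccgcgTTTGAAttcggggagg
Aurka (chr2:172370523-172370548, minus strand): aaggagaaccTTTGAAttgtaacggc

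Counted from the start site, the CHR of Cdc20 began at base -18, that of Ube2c at -29 and those of Cdk1 at -71 and -15. The CHR shown for Ccnb2, Plk1 and Aurka began after the start site, at bases 5, 31 and 33. The stretches of Plk1 and Aurka lie wholly after it. Of the 37 genes, 30 had a promoter window in the RefSeq table, which runs from 250 bases before the start to 50 after it. Of these 30 genes, 24 (80%) held a CHR, against 19% of the 15614 array genes with a window. For a CHR within 50 bases of the start the shares were 22 of 30 (73.3%) and 5%. CCAAT boxes stood in 23 of 30 (76.7%) against 41.7%, and both motifs in 20 of 30 (66.7%) against 8.78%. No window of a gene in the list held a CHR and a CCAAT box that overlapped. A match is a run of letters and not a measured binding site. Median log2 differences between groups were near 0 with and without the element. For the 24 genes with a CHR they were -0.08 (BCR-ABL minus vector), 0.07 (BCR-ABL-Blk minus BCR-ABL) and 0.03 (BCR-ABL-Blk minus vector). For the 5 measured genes with a window and no CHR they were -0.01, 0.08 and 0.04 in the same order.

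All levels below are log2 signals, quantile normalized between arrays, and all differences are log2 differences of group means, for which 1 is a doubling. Before normalization the median log2 value ranged from 7.29 to 7.52 on the BCR-ABL-Blk arrays, from 7.01 to 7.20 on the BCR-ABL arrays and from 7.06 to 7.44 on the vector arrays. Kit, the receptor used in the sort, read between 10.33 and 10.92 on all arrays, and Ptprc, the pan-leukocyte marker CD45, between 10.98 and 11.13; Ly6a, which encodes Sca-1, was not analysed here. The lineage markers Cd3e, Cd4 and Cd8a lay between 6.30 and 7.64. Cd79a, of B cells, read 6.81 and 7.55 in BCR-ABL-Blk, 6.13 and 6.72 in BCR-ABL, and 8.63 and 7.31 in vector cells, and Ly6g, of neutrophils, ranged from 6.23 to 8.50. Of 13 genes of the gate and lineages 1 passed limma over all genes: Cd48, carried by progenitors, rose by 0.47 in BCR-ABL against vector cells (adjusted p = 0.0493). Slamf1 (CD150), carried by stem cells, read 8.38 and 8.54 in BCR-ABL-Blk, 8.47 and 8.88 in BCR-ABL, and 7.12 and 7.80 in vector cells (adjusted p = 0.153 for BCR-ABL minus vector).

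No mitosis gene passed limma's test over all genes between any 2 groups, and the measured differences were small. The largest of all members in the 3 comparisons was that of Foxm1 between BCR-ABL and vector, at -0.35, or 1.27-fold lower. Signals of the list as a whole were nearly level: the median gene read 10.70 and 10.64 in BCR-ABL-Blk, 10.71 and 10.53 in BCR-ABL, and 10.71 and 10.62 in vector cells. The arrays of the 3 groups overlapped.

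**Figure D1:**
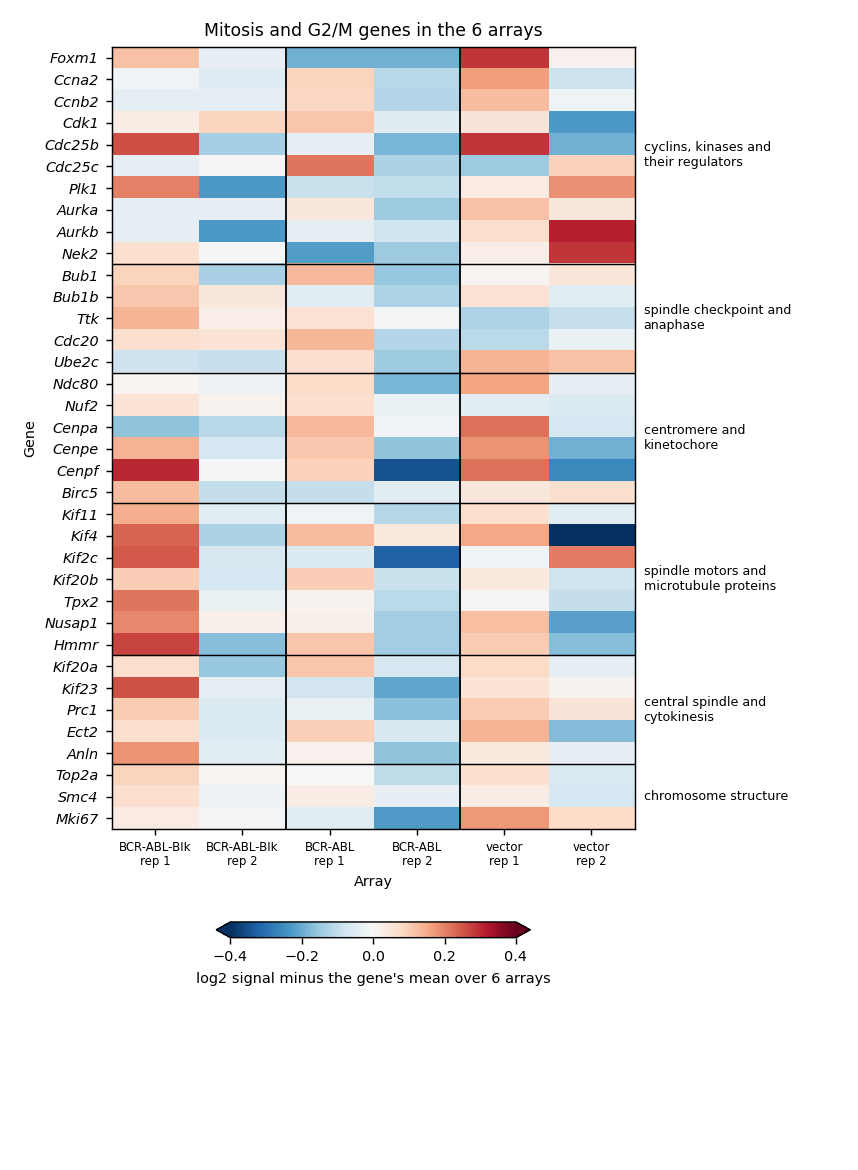
Log2 signal of the 36 mitosis and G2/M genes on the 6 arrays, as the difference from each gene's mean over the arrays (colour), with genes in rows by role and arrays in columns by group. Most genes are redder on replicate 1 than on replicate 2 of the same group (31 of 36 in BCR-ABL-Blk, 34 in BCR-ABL and 27 in vector cells). Over all genes the shares were 46.4%, 56.1% and 51.5%. Signals are quantile normalized, and the counts depend on the scaling. No group is of one colour throughout.

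BCR-ABL cells were set against vector cells to see what the oncogene changes in this gate. Of 36 genes, 0 rose and 0 fell at an adjusted p under 0.05 (limma), where 0.145% of all genes were called. At an unadjusted p under 0.05 there were 2, Foxm1 and Mki67, both lower, which is 5.56% of the list against 8.64% of all genes. The median difference was -0.06, against 0.02 over all genes. Of all 19938 genes, 10843 lay above 0 and 9085 below, and of the list 12 above and 24 below. This direction depended on the scale: with each array centred on its median, 24 of 36 genes lay above 0 and the median was 0.08, against 0.04 over all genes. The arrays of the 2 groups did not overlap for 14 of 36 genes (12 lower and 2 higher), or 38.9% against 37% of all genes. The 95% interval of the difference lay within 1.5-fold either way for 30 of 36 genes (83.3%), against 78.3% of all genes. The others were Foxm1, Cdc25b, Nek2, Cenpf, Kif4 and Kif2c, whose intervals reach farther. To pass over all genes, the median member would have needed a difference of 0.98, or 1.97-fold.

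Among the cyclins, kinases and their regulators, 8 of 10 measured genes lay below 0 in BCR-ABL against vector cells, with a median of -0.14. Over all genes, 9085 of 19938 lay below 0. The direction of the whole list depended on the scale, and for this and the other roles other scales are not given here. Foxm1, the forkhead factor that switches on G2/M genes, read 9.79 and 9.64 in BCR-ABL-Blk, 9.48 and 9.48 in BCR-ABL, and 9.96 and 9.69 in vector cells. Both BCR-ABL arrays lay below all the others. The difference from vector was -0.35 (SE 0.14, 95% interval -0.68 to -0.01, limma adjusted p = 0.563). Leaving out vector replicate 1 gave -0.21, and leaving out vector replicate 2 gave -0.48. Nek2, a kinase that splits the centrosomes, had a like pattern, at 9.25 and 9.18, 8.96 and 9.04, and 9.21 and 9.47 in the BCR-ABL-Blk, BCR-ABL and vector groups. Its difference between BCR-ABL and vector was -0.34 (SE 0.15, adjusted p = 0.588), and -0.20 without vector replicate 2.

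The cyclins themselves read close to each other in all groups. Ccna2, cyclin A2, read 11.48 and 11.44 in BCR-ABL-Blk, 11.58 and 11.38 in BCR-ABL, and 11.66 and 11.41 in vector cells. Ccnb2, cyclin B2, read 11.33 and 11.33 in BCR-ABL-Blk, 11.45 and 11.25 in BCR-ABL, and 11.49 and 11.35 in vector cells. For both genes the BCR-ABL and vector arrays overlapped, and the differences between these groups were -0.05 (95% interval -0.30 to 0.19) and -0.07 (-0.29 to 0.15). Cdk1, the kinase they activate, read 11.42 and 11.48 in BCR-ABL-Blk, 11.50 and 11.34 in BCR-ABL, and 11.44 and 11.16 in vector cells, a difference of 0.12 between BCR-ABL and vector (-0.13 to 0.37). It and Cdc25c, one of the phosphatases that switch Cdk1 on (0.07, -0.32 to 0.45), were the genes of this role above 0. Cdc25b, another such phosphatase, was at -0.16 with a wide interval of -0.63 to 0.32.

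Of the mitotic kinases, Plk1, which acts at centrosomes and kinetochores, differed by -0.21 between BCR-ABL and vector (adjusted p = 0.767), and Aurka, which builds the spindle poles, by -0.13 (adjusted p = 0.787). Aurkb, the kinase of the chromosomal passenger complex, read 10.52 and 10.33 in BCR-ABL-Blk, 10.52 and 10.48 in BCR-ABL, and 10.63 and 10.87 in vector cells. All 4 arrays with BCR-ABL lay below both vector arrays. The difference was -0.25 for BCR-ABL (SE 0.12, adjusted p = 0.639) and -0.33 for BCR-ABL-Blk (SE 0.12, 95% interval -0.62 to -0.04, adjusted p = 0.449), both against the same vector arrays. Without vector replicate 2 these values were -0.13 and -0.21, and without vector replicate 1 they were -0.37 and -0.45.

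Spindle checkpoint and anaphase genes had a median of -0.03 between BCR-ABL and vector, with 2 of 5 above 0. Ttk (Mps1), the kinase that starts the checkpoint, read 10.75 and 10.64 in BCR-ABL-Blk, 10.67 and 10.61 in BCR-ABL, and 10.49 and 10.52 in vector cells. Every array with BCR-ABL was higher than both vector arrays, by 0.13 on average for BCR-ABL (adjusted p = 0.774) and 0.19 for BCR-ABL-Blk (adjusted p = 0.623). Ube2c, the ubiquitin-conjugating enzyme of the anaphase-promoting complex, lay on the other side, with 9.43 and 9.42 in BCR-ABL-Blk, 9.58 and 9.37 in BCR-ABL, and 9.65 and 9.63 in vector cells. Its differences from vector were -0.16 for BCR-ABL (adjusted p = 0.804) and -0.22 for BCR-ABL-Blk (adjusted p = 0.694). Cdc20, the activator of that complex, was at 0.07 between BCR-ABL and vector, and the checkpoint kinase Bub1 and the related BubR1 (Bub1b) were at -0.03 and -0.09.

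Centromere and kinetochore genes, which join chromosomes to the spindle, had a median of -0.06 between BCR-ABL and vector, and 5 of 6 lay below 0. Ndc80 and Nuf2, partners in the complex that grips microtubules, were at -0.12 (95% interval -0.41 to 0.17) and 0.07 (-0.15 to 0.29). Birc5 (survivin), which works with Aurkb, read 11.60 and 11.38 in BCR-ABL-Blk, 11.38 and 11.43 in BCR-ABL, and 11.52 and 11.54 in vector cells, with a difference of -0.12 (-0.33 to 0.08) between BCR-ABL and vector. The centromeric histone Cenpa and the kinetochore motor Cenpe were both at -0.01. Cenpf, a large kinetochore protein, varied most in this role, at 10.64 and 10.33 in BCR-ABL-Blk, 10.43 and 9.99 in BCR-ABL, and 10.56 and 10.08 in vector cells. Its arrays differed more within each group than the group means did.

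Spindle motors and microtubule proteins had a median of 0.00 between BCR-ABL and vector, with 4 of 7 above 0. Kif11, the motor that pushes the spindle poles apart, was at -0.08 (95% interval -0.29 to 0.13), and Tpx2, which activates Aurka on the spindle, at 0.00 (-0.26 to 0.26). Kif2c, a motor that takes microtubules apart, was lowest at -0.29 (-0.68 to 0.11), and Kif4, a chromosome-bound motor, highest at 0.22 (-0.27 to 0.71). Kif4 read 10.23 and 9.87 in BCR-ABL-Blk, 10.12 and 10.04 in BCR-ABL, and 10.15 and 9.57 in vector cells. Both BCR-ABL arrays lay between the vector arrays, and without vector replicate 2 the difference was -0.07. Kif20b, Nusap1 and Hmmr, which bind spindle microtubules, lay between -0.01 and 0.02.

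Genes of the central spindle and cytokinesis had a median of -0.08, and 3 of 5 lay below 0. Kif23 and Prc1, which organise the midzone between the separating chromosomes, were both at -0.18 (adjusted p = 0.753 and 0.742). Kif20a was at 0.00, Ect2, the exchange factor that starts the contractile ring, at 0.03, and the ring scaffold Anln at -0.08. Chromosome structure genes had narrow intervals, with a median SE of 0.0668 against 0.123 for the whole list. Top2a, the topoisomerase that untangles chromosomes, read 12.39 and 12.31 in BCR-ABL-Blk, 12.30 and 12.20 in BCR-ABL, and 12.37 and 12.24 in vector cells, with a difference of -0.05 between BCR-ABL and vector (95% interval -0.20 to 0.10). A second, dimmer probe set of Top2a read 5.99 and 5.08, 5.90 and 6.21, and 6.55 and 5.96 in the same groups, and the mean of both differed by -0.13. Smc4, a condensin subunit, was at 0.02 (-0.14 to 0.18). Mki67, which encodes the proliferation antigen Ki-67, read 11.29 and 11.25 in BCR-ABL-Blk, 11.21 and 11.03 in BCR-ABL, and 11.43 and 11.33 in vector cells. All 4 arrays with BCR-ABL were below both vector arrays. The difference was -0.26 for BCR-ABL (SE 0.09, 95% interval -0.47 to -0.05, adjusted p = 0.452) and -0.11 for BCR-ABL-Blk (adjusted p = 0.789).

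**Figure D2:**
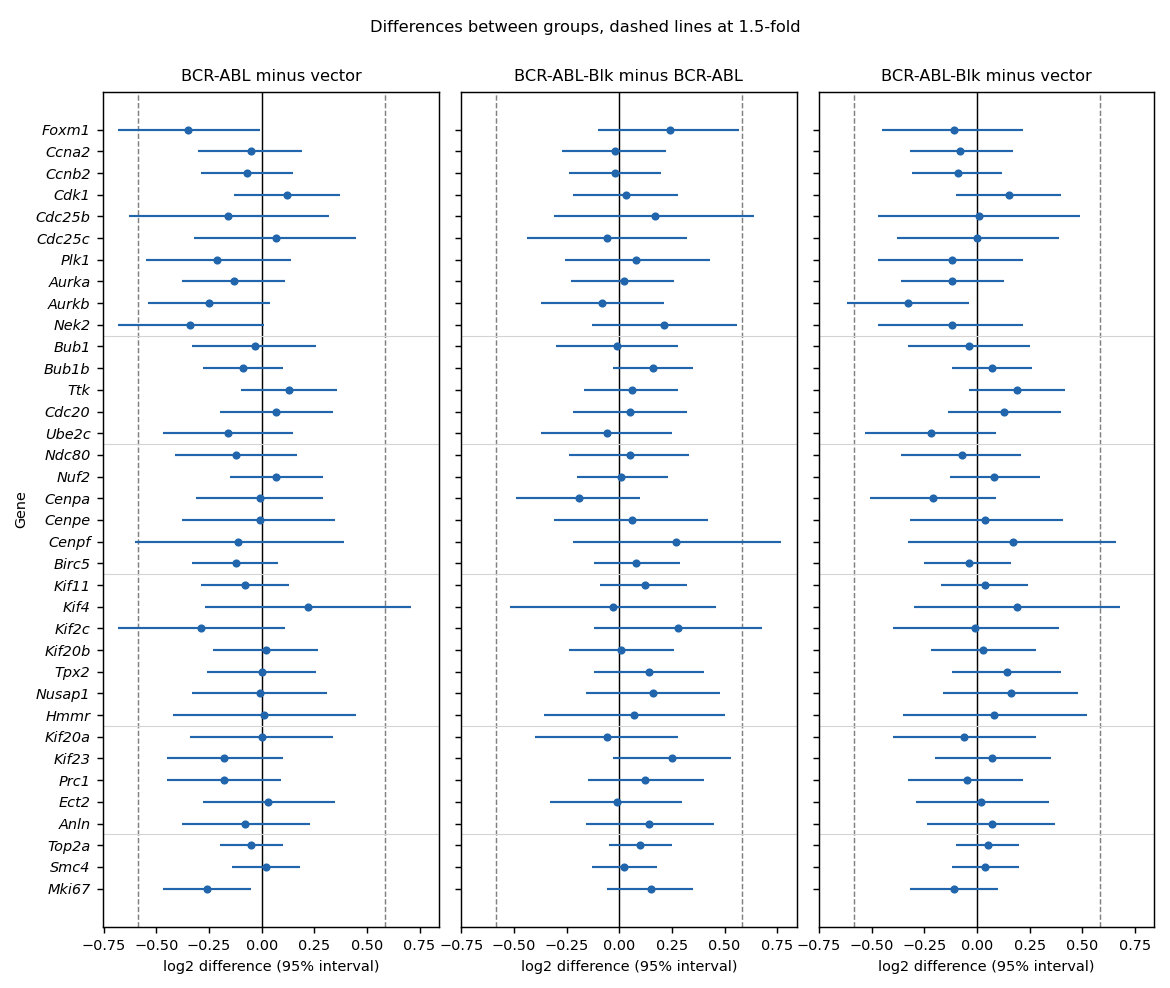
Differences of group means on the log2 scale (points) with 95% intervals from limma (bars) for the 36 genes in 3 comparisons, with 2 arrays per group and dashed lines at 1.5-fold either way. Intervals lie within the dashed lines for 30 genes between BCR-ABL and vector, for 33 in BCR-ABL-Blk minus BCR-ABL, and for 33 between BCR-ABL-Blk and vector.

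The effect of added Blk in cells with the oncogene was read from BCR-ABL-Blk against BCR-ABL cells. Again 0 of 36 genes rose and 0 fell (limma adjusted p under 0.05), as for 0% of all genes, and 0 had an unadjusted p under 0.05, against 3.96% of all genes. Every member had an adjusted p of 0.999. The median difference was 0.06, against -0.01 over all genes. Of all 19938 genes, 9084 lay above 0 and 10833 below, and of the list 26 above and 10 below. Arrays of the groups did not overlap for 8 of 36 genes (7 higher and 1 lower), or 22.2% against 34% of all genes. Intervals lay within 1.5-fold either way for 33 of 36 (91.7%), against 82.5% of all genes, the others being Cdc25b, Cenpf and Kif2c. The scale set the sign of the median: with each array centred on its median it was -0.06, against -0.05 over all genes, with 12 of 36 genes above 0. On the deposited values 36 of 36 lay above 0, with a median of 0.24 against 0.25 over all genes.

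The BCR-ABL arrays also enter the comparison with vector, so the values of the 2 comparisons are not separate. Aurkb differed by -0.08 and Ube2c by -0.06 here. Foxm1 differed by 0.24 (95% interval -0.10 to 0.57), Nek2 by 0.21 (-0.13 to 0.56), Kif2c by 0.28 (-0.12 to 0.68) and Mki67 by 0.15 (-0.06 to 0.35). Kif23 read 11.13 and 10.84 in BCR-ABL-Blk and 10.80 and 10.67 in BCR-ABL cells, so the groups did not overlap. Its difference was 0.25 (-0.03 to 0.53), or 0.10 without BCR-ABL-Blk replicate 1 and 0.40 without BCR-ABL-Blk replicate 2. Bub1b, at 11.31 and 11.25 in BCR-ABL-Blk and 11.16 and 11.08 in BCR-ABL cells, differed by 0.16 (-0.03 to 0.35). Cenpa was the gene whose BCR-ABL-Blk arrays both lay below the BCR-ABL arrays, with 10.35 and 10.40 against 10.64 and 10.50 (difference -0.19, 95% interval -0.49 to 0.10). Kinase and cyclin genes had a median of 0.02, spindle motors of 0.12 and cytokinesis genes of 0.12. Ccna2, Ccnb2, Cdk1 and Aurka lay between -0.02 and 0.03.

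Between BCR-ABL-Blk and vector, 0 of 36 genes rose and 0 fell (limma adjusted p under 0.05), where 0.14% of all genes were called. Aurkb alone had an unadjusted p under 0.05, which is 2.78% of the list against 9.42% of all genes. The median difference was 0.02, against 0.00 over all genes. Of all 19938 genes, 10214 lay above 0 and 9715 below, and of the list 20 above and 16 below. Arrays of the groups did not overlap for 9 of 36 genes (6 lower and 3 higher), or 25% against 37.2% of all genes. Intervals lay within 1.5-fold either way for 33 of 36 (91.7%), against 77.8% of all genes, the others being Aurkb, Cenpf and Kif4. Top2a was at 0.05 (-0.10 to 0.20; -0.33 as the mean of both probe sets), Smc4 at 0.04 (-0.12 to 0.20), Ccnb2 at -0.09 (-0.31 to 0.12) and Cdk1 at 0.15 (-0.10 to 0.40). The genes whose arrays were apart included Cdc20, at 10.64 and 10.63 in BCR-ABL-Blk against 10.47 and 10.55 in vector cells, and Nuf2, at 10.74 and 10.70 against 10.64 and 10.63. This comparison and that of BCR-ABL with vector share the vector arrays, so their values of Aurkb, Ttk and Mki67 are not separate evidence.

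Members tended to differ in a common direction between the arrays of a group. After quantile normalization, replicate 1 read higher than replicate 2 for 31 of 36 genes in BCR-ABL-Blk, 34 in BCR-ABL and 27 in vector cells, with median differences of 0.15, 0.16 and 0.10. Over all genes replicate 1 was higher for 46.4%, 56.1% and 51.5%. The direction depended on the scaling. With each array centred on its median, replicate 1 was higher for 22, 9 and 34 of 36, with medians of 0.07, -0.08 and 0.40 against -0.04, -0.05 and 0.07 over all genes. On the deposited values the medians were 0.30, 0.11 and 0.02, against 0.19, 0.14 and -0.31 over all genes. Relative to all genes, the list was therefore higher on replicate 1 in BCR-ABL-Blk and vector cells under quantile normalization and on the deposited values. In BCR-ABL cells it was so under quantile normalization alone. Centring moves all genes of an array alike, so relative to all genes it repeats the deposited values and is not a separate result. Kif4 had the widest gap in vector cells (0.58), Cenpf in BCR-ABL cells (0.44) and Hmmr in BCR-ABL-Blk cells (0.44), all after quantile normalization. The median absolute gap of the members was 0.15, 0.16 and 0.14, against 0.12, 0.12 and 0.15 for all genes.

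**Figure D3:**
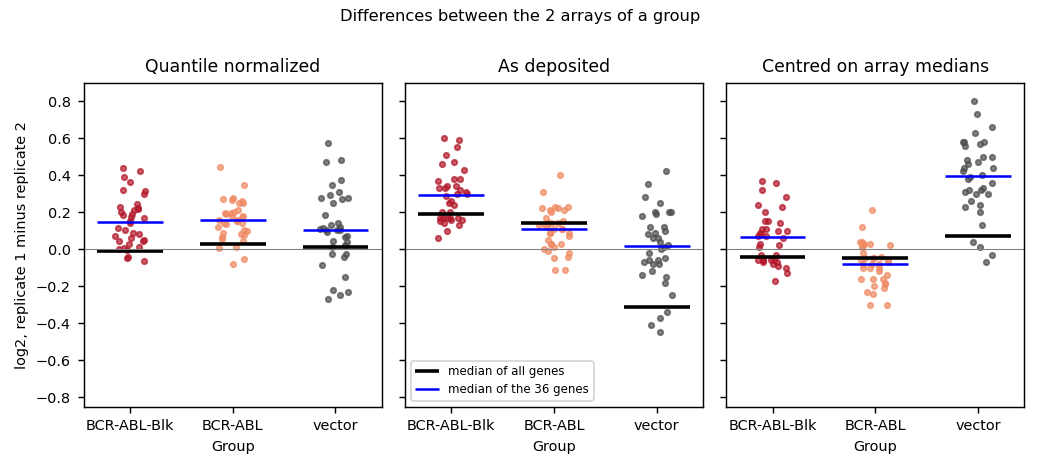
Log2 difference between replicate 1 and replicate 2 of each group (y axis) for the 36 genes (points), with the median of the list (blue) and of all genes (black), under 3 scalings of the arrays. The blue bar of BCR-ABL lies above the black bar when quantile normalized (0.16 against 0.03) and below it when centred on array medians (-0.08 against -0.05).

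Further genes of the pathway did not pass either. Of 76 other mitosis genes listed, 68 were measured, and 0 rose and 0 fell in any comparison (limma adjusted p under 0.05). At an unadjusted p under 0.05 there were 2 for BCR-ABL minus vector, 1 for BCR-ABL-Blk minus BCR-ABL and 4 for BCR-ABL-Blk minus vector, against 8.64%, 3.96% and 9.42% of all genes. The list's medians in these comparisons were -0.01, 0.02 and 0.00. Cenpm, a kinetochore gene, read 9.11 and 9.08 in BCR-ABL-Blk, 8.90 and 8.60 in BCR-ABL, and 9.17 and 9.07 in vector cells, with a difference of -0.37 between BCR-ABL and vector (adjusted p = 0.563). Incenp, the scaffold of the complex that holds Aurkb and Birc5, read 10.11 and 10.27 in BCR-ABL-Blk and 9.87 and 9.86 in BCR-ABL cells (difference 0.32, adjusted p = 0.999). Psrc1, which binds spindle microtubules, read 9.49 and 9.20 in BCR-ABL-Blk and 8.84 and 8.82 in vector cells (difference 0.51, 95% interval 0.15 to 0.87, adjusted p = 0.334). Of these genes with a promoter window, 37 of 58 (63.8%) held a CHR.

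Of 17 listed regulators of G2/M transcription 15 were measured, and 0 rose and 0 fell in any comparison. At an unadjusted p under 0.05 there were 1, 2 and 3 of 15 in the same order of comparisons. The shares over all genes were 8.64%, 3.96% and 9.42%. The list's share was smaller than these between BCR-ABL and vector, and larger in both comparisons of BCR-ABL-Blk. Tfdp2, the dimer partner of E2F factors, read 10.26 and 10.23 in BCR-ABL-Blk, 10.18 and 10.12 in BCR-ABL, and 9.91 and 9.45 in vector cells. Both groups with BCR-ABL lay above vector, by 0.56 with Blk (adjusted p = 0.315) and 0.47 without (adjusted p = 0.458). Nfya, a subunit of NF-Y, was at 0.47 for BCR-ABL-Blk minus BCR-ABL (95% interval 0.09 to 0.86), and Rbl1, the pocket protein p107, at 0.31 (0.02 to 0.59), each at an adjusted p of 0.999. The other NF-Y subunits Nfyb and Nfyc were at -0.36 and 0.10, at the same adjusted p. Mybl2 was at -0.23 in that comparison (-0.54 to 0.09). For BCR-ABL-Blk minus vector, which shares the BCR-ABL-Blk arrays, Nfya was at 0.39 and Rbl1 at 0.34 (limma adjusted p = 0.512 and 0.426).

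Of 30 G1/S and replication genes listed, 29 were measured, and 0 rose and 0 fell in any comparison; their medians were 0.00, -0.04 and 0.02, with 0, 1 and 1 genes at an unadjusted p under 0.05, against 8.64%, 3.96% and 9.42% of all genes. Rrm2, the small subunit of ribonucleotide reductase, was the gene in both cases. It read 11.29 and 11.21 in BCR-ABL-Blk, 11.54 and 11.43 in BCR-ABL, and 11.60 and 11.54 in vector cells. Both BCR-ABL-Blk arrays lay below the other 4, with a difference of -0.32 from vector (95% interval -0.50 to -0.14, adjusted p = 0.204) and -0.24 from BCR-ABL (adjusted p = 0.999).

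Several lists of other cell types spanned wider ranges over the arrays than the mitosis genes. The mean log2 level of 17 measured B cell genes was 7.83 and 7.55 in BCR-ABL-Blk, 7.44 and 7.69 in BCR-ABL, and 9.60 and 8.29 in vector cells. That of 13 stem cell genes was 8.77 and 8.89, 8.70 and 8.74, and 8.25 and 7.92, and all 13 lay above 0 in BCR-ABL against vector cells (median 0.59, with 0 past the test there). For 12 erythroid genes the means were 8.78 and 8.56, 8.87 and 8.86, and 9.60 and 9.07 in the same order. For the mitosis genes they were 10.66 and 10.51, 10.59 and 10.44, and 10.65 and 10.53. Monocyte and macrophage genes (8.15 and 8.28, 8.19 and 8.50, and 9.12 and 9.18) were also highest in vector cells. Neutrophil granule genes read 9.76 and 9.53, 9.92 and 10.20, and 10.08 and 10.73, so BCR-ABL replicate 2 lay above vector replicate 1. Mast cell and basophil genes were lowest in vector cells (9.03 and 8.09, 8.85 and 9.01, and 7.84 and 7.87). The list means of T and NK cell genes lay close together (6.69 and 6.76, 6.66 and 6.73, and 6.86 and 6.66). Vector replicate 1 was highest in B cell and erythroid genes. For the mitosis genes, replicate 1 read higher than replicate 2 for 27 of 36 in the vector group. The counts were 34 with the oncogene alone and 31 with added Blk. B cell genes were lower on replicate 1 in the former and higher in the latter. The median mitosis gene was at -0.06 between BCR-ABL and vector. It was at 0.01 without vector replicate 1 and at 0.04 without BCR-ABL replicate 2. Leaving out vector replicate 2 gave -0.13, and leaving out BCR-ABL replicate 1 gave -0.14. Single genes of these lists passed limma over all genes. Klrd1, of NK cells, fell by 1.29 in BCR-ABL and by 1.03 in BCR-ABL-Blk against vector cells (limma adjusted p = 0.0187 and 0.049). It was the lowest of 15 T and NK cell genes, whose medians were -0.05 and -0.06. Of these 15, 7 lay above 0 and 8 below for BCR-ABL, and 5 above and 10 below for BCR-ABL-Blk. Thy1 was the highest of them, at 1.21 and 1.46. Gzmb, which was in the mast cell list, rose by 3.25 and 2.50 in the same comparisons (limma adjusted p = 0.0187 and 0.049). Between BCR-ABL-Blk and vector, the stem cell gene Meis1 rose by 1.08 and the monocyte gene Ccr2 fell by 1.38 (adjusted p = 0.049 for both). These genes were picked out after their values were seen. The part of these cell types in the mitosis values was not tested.

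**Figure D4:**
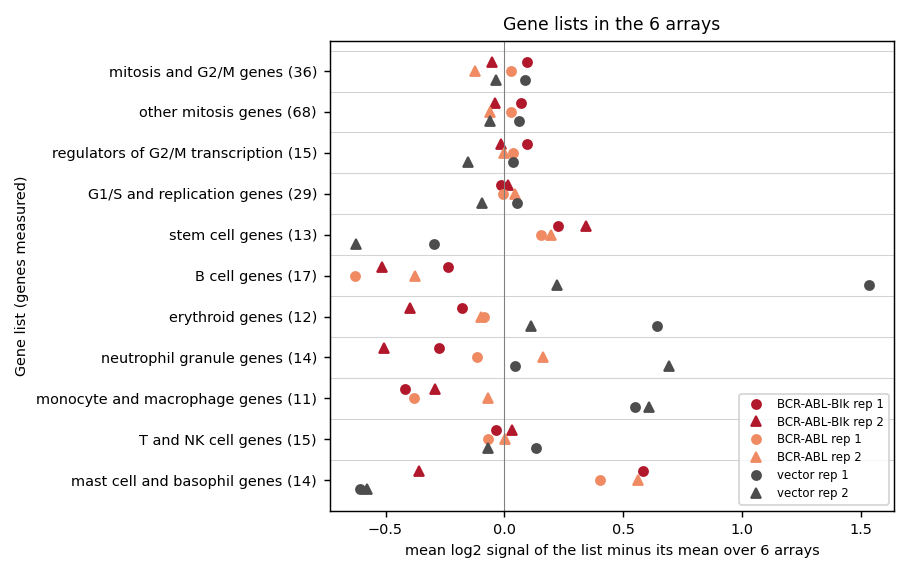
Mean log2 signal of each gene list on each array, as the difference from the list's mean over the 6 arrays (x axis), with lists in rows, groups by colour and replicates by symbol. The mitosis genes span 10.44 to 10.66 over all arrays, while B cell genes span 7.44 to 9.60.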

How the data were processed

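One value table was used. Its deposited log2 values were made by the authors with Affymetrix Expression Console 1.1 and RMA, per the submitters' processing notes; which options and which genome build were used is not stated. The columns did not share one distribution, so the 35557 probe sets were quantile normalized between arrays. Of the probe sets, 21789 had 1 symbol in the platform annotation, 1621 had several and 12147 are unnamed here. One probe set per gene, the brightest, left 19938 genes, with no filter on level. All 36 members matched RefSeq by Entrez ID.

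Groups were compared with limma 3.58.1 in R 4.3.3 (lmFit, eBayes with an intensity trend) over 6 arrays without a block, with 3 residual and 4.4 prior degrees of freedom. P-values are two-sided and Benjamini-Hochberg adjusted over all genes. The median standard error was 0.123 for members and 0.129 for all genes; the number of arrays limits the precision, and signal over background was not measured. An exact permutation test of 2 against 2 arrays cannot go below p = 0.333 and was not used. The fit was tested on simulated data. Alternatives covered scaling, probe sets, dim genes, a replicate block, the variance model, array weights, the arrays in the fit and leaving out each array. Members and lists were chosen with earlier results of these data known. All members could be named; of the other pathway lists, those called or, failing that, some with the smallest p. Figures were drawn with Python 3.11.15 and matplotlib 3.10.9.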

Additional observations from a re-analysis of the deposited data

How the results depend on the processing

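In all 14 alternatives, 0 of 36 mitosis genes passed in any comparison; none of 1512 single values changed its side of the threshold, and the smallest adjusted p was 0.117 (Aurkb between BCR-ABL-Blk and vector, -0.45 without vector replicate 1). Signs were less stable: 14 of 36 genes never turned for BCR-ABL minus vector, 11 for BCR-ABL-Blk minus BCR-ABL and 10 for BCR-ABL-Blk minus vector. Foxm1 and Mki67 were among the 14 and among the 11. Signs were compared on rounded values, so a gene at 0.00 could not turn and was counted as stable. Tpx2 and Kif20a among the 14 and Cdc25c among the 10 were such genes. The median difference between BCR-ABL and vector was 0.08 with arrays centred on their medians (all genes 0.04) and ranged from -0.14 to 0.04 as single arrays of the groups were left out (without BCR-ABL replicate 1 and without BCR-ABL replicate 2). Between BCR-ABL-Blk and BCR-ABL it was 0.24 on the deposited values (all genes 0.25), -0.06 with arrays centred, and -0.02 to 0.15 with arrays left out (BCR-ABL replicate 2 and BCR-ABL-Blk replicate 2). Between BCR-ABL-Blk and vector it was 0.18 on the deposited values (all genes 0.15) and -0.08 to 0.09 with arrays left out (-0.08 without BCR-ABL-Blk replicate 1). The medians on deposited values were close to those of all genes. Centring moves all genes of an array alike, so relative to all genes it repeats the deposited values. The cause of the remaining shifts was not tested. On the deposited values all genes shifted by -0.11 between BCR-ABL and vector, where the members' median was -0.07.

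With a replicate block, 0 members were called. Each group holds both replicate numbers, so the block could not change any difference of group means. The medians of -0.06, 0.06 and 0.02 were thus fixed in advance. Replicate differences over all genes correlated at -0.0618, 0.0841 and 0.0334 between groups. Each difference rests on single arrays, so whether samples of equal replicate number belong together is not known from these values. Where an array was left out, its remaining partner was taken to have the spread of the other arrays. With the mean of both Top2a probe sets, its difference was -0.21 between BCR-ABL-Blk and BCR-ABL cells and -0.33 between BCR-ABL-Blk and vector, against 0.10 and 0.05.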
